A study of Mus musculus with 31 samples.

Results

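The 7 genes described here are transcripts of Schwann cells, the glia of peripheral nerve, and of the myelin they wrap around axons. They are Pmp22, Mbp, Prx, Mag, S100b, Sox10 and Ngfr, chosen by name and followed as counts in every library, 7 of 22609 gene symbols counted. Levels are given as CPM, reads per 1000000 reads on genes after scaling, or as RPKM, which is CPM per 1000 bases of exon. The libraries are bulk RNA-seq of whole dissected masseter muscle (MM), a jaw-closing muscle, from 31 adult male C57BL/6J mice, 1 library per mouse, and the labels give the material as all muscle cells. All mice received an injection into the left MM, and tendons were trimmed off as far as possible. In the CFA experiment, 3 mice received vehicle (CFA_control) and 3 each were taken 1d (CFA_1d) and 5d (CFA_5d) after complete Freund's adjuvant, a mycobacterial oil emulsion that causes inflammation. In the Col experiment, 3 mice received vehicle (Contr), and 4 each received 0.2U collagenase type 2 (Col), an enzyme that digests the collagen matrix, in groups labelled 1C and RPC. After 10U Col, 4 mice were taken at 2d, 3 at 6d and 4 at 12d by the labels. The study's text gives 1 and 14 days for the first and last of these groups. No source used here ties 1C and RPC to a day, or gives the day of either vehicle group.

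A nerve that enters a muscle carries axons that are each either wrapped by a myelinating Schwann cell or held loosely, in bundles, by a non-myelinating one. Compact myelin is built from membrane proteins such as Pmp22 and from Mbp on the inner face of the membrane. Prx anchors the outer Schwann cell membrane, and Mag sits in the membrane that faces the axon. Sox10 is the transcription factor that keeps Schwann cells in their lineage and drives myelin genes together with Egr2. S100b is a calcium-binding protein widely used as a Schwann cell marker. Ngfr is the low-affinity neurotrophin receptor p75, which is high in immature, non-myelinating and injured Schwann cells and low in myelinating ones. None of the 7 is exclusive to Schwann cells, since Sox10 is also made by salivary gland epithelium and melanocytes, and S100b and Pmp22 by several other cells.

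RefSeq promoter entries (build GRCm38.p6) were matched for 5 of the 7 members, in 10 entries. The stretches of 250 bases before the gene start are shown for 3 members that were low together 6d post-10U Col (Pmp22, Prx, Mag) and for Ngfr, which was high there. For Pmp22 it is the most upstream of 4 starts, and for Mag the most upstream of 3. Capitals mark a SOX core, the only match among the motifs searched.
Pmp22 (chr11:63128732-63128981, plus strand): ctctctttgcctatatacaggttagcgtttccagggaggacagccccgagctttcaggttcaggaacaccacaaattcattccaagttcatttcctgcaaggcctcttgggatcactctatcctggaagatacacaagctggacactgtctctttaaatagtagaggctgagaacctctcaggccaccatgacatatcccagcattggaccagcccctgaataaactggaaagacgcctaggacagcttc
Prx (chr7:27499074-27499323, plus strand): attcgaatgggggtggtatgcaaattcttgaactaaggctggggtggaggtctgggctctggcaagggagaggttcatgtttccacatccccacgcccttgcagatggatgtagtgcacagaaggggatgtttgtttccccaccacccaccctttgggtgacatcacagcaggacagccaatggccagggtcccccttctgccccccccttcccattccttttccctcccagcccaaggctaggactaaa
Mag (chr7:30914923-30915172, minus strand): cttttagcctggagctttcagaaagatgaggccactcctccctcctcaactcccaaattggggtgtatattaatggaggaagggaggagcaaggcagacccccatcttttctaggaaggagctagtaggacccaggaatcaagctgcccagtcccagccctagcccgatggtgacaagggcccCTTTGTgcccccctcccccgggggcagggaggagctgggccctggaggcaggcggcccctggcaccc
Ngfr (chr11:95587699-95587948, minus strand): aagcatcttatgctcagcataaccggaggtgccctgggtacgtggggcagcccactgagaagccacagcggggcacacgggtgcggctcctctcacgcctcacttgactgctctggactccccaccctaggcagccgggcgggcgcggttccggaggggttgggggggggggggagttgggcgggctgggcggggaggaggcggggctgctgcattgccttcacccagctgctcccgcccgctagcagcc

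The base composition of these stretches runs from 48.8% G and C in Pmp22 through 56.4% in Prx and 61.2% in Mag to 70.4% in Ngfr. The motifs searched, on both strands, were the SOX cores ACAAAG and ACAATG and the EGR core GCGNGGGCG, the last being the site of Egr2 and its relatives. ACAAAG was found on the other strand in Mag, from base 67 to base 62 before the start, where it reads CTTTGT, and this same match recurs in a second, overlapping Mag entry. Of 32851 promoters of the same length, 16.5% hold ACAAAG, 10.7% ACAATG, 4.7% the EGR core and 29.4% at least 1 of the 3. A share of 1 of 5 members with a match is a description of these letters in these windows.

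By the GENCODE vM1 annotation of build mm9, Pmp22 lies at chr11:62942484-62973049 on the plus strand and Mbp at chr18:82644538-82755029 on the plus strand. Prx lies at chr7:28284343-28305233 on the plus strand, Mag at chr7:31684202-31699851 on the minus strand and S100b at chr10:75716598-75723904 on the plus strand. Sox10 lies at chr15:78985343-78994920 on the minus strand and Ngfr at chr11:95430132-95449049 on the minus strand. The deposited counts were matched to these loci by gene symbol, and the annotation used for counting is not given in the sources used here. Exons of Prx overlap those of Gm15541 on the other strand, so reads from the 2 cannot be told apart where the counting did not use strand. Dip2a lies on the other strand at S100b without sharing exons, and its level stayed between 13.1 and 26.1 CPM in every library.

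Per exon length, Pmp22 was the most abundant member, with a mean of 84.0 RPKM over the 31 mice. Mbp followed with 20.7 RPKM, then Prx with 11.1, Sox10 with 10.0 and S100b with 9.91 RPKM. Mag (1.86 RPKM) and Ngfr (1.54 RPKM) were the lowest. Every member passed the filter on low counts in every comparison, and the lowest count of any member in any library was 27, for Mag at 6d post-10U Col.

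The libraries held 14843778 to 29076671 reads on genes, with a median of 20834472, and no pair of the 465 was identical. The summed CPM of 6 muscle fibre genes was at least 26181 in every mouse. Salivary gland transcripts (11 genes, summed) ranged from 10.5 to 142967 CPM and exceeded 1000 CPM in 16 libraries, which are called gland libraries below. They are all 3 mice at 5d post-CFA, all 4 RPC mice, 3 of 4 at 2d post-10U Col, 2 of 4 in 1C, 2 of 3 Col vehicles and 1 of 3 each in the CFA vehicle and 1d post-CFA groups, and no mouse at 6d or 12d post-10U Col. Reads that HTSeq found over more than 1 gene made up 0.675% to 0.875% of the reads on genes in all 11 libraries of 10U Col and 0.147% to 0.317% in the other 20. A difference in library or data handling therefore coincides with the 10U groups, and the 2 cannot be told apart in comparisons with vehicle. The share of such reads does not separate the 10U groups from each other. The titles of the 6d mice are written in another form than those of 2d and 12d. Whether the 6d mice were handled separately is not given in the sources used here. In bulk tissue, fewer cells of a type and less RNA per cell cannot be told apart. The count files of the CFA and Col experiments also close in different forms, so values of the 2 experiments set side by side may have been counted separately.

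**Figure D1:**
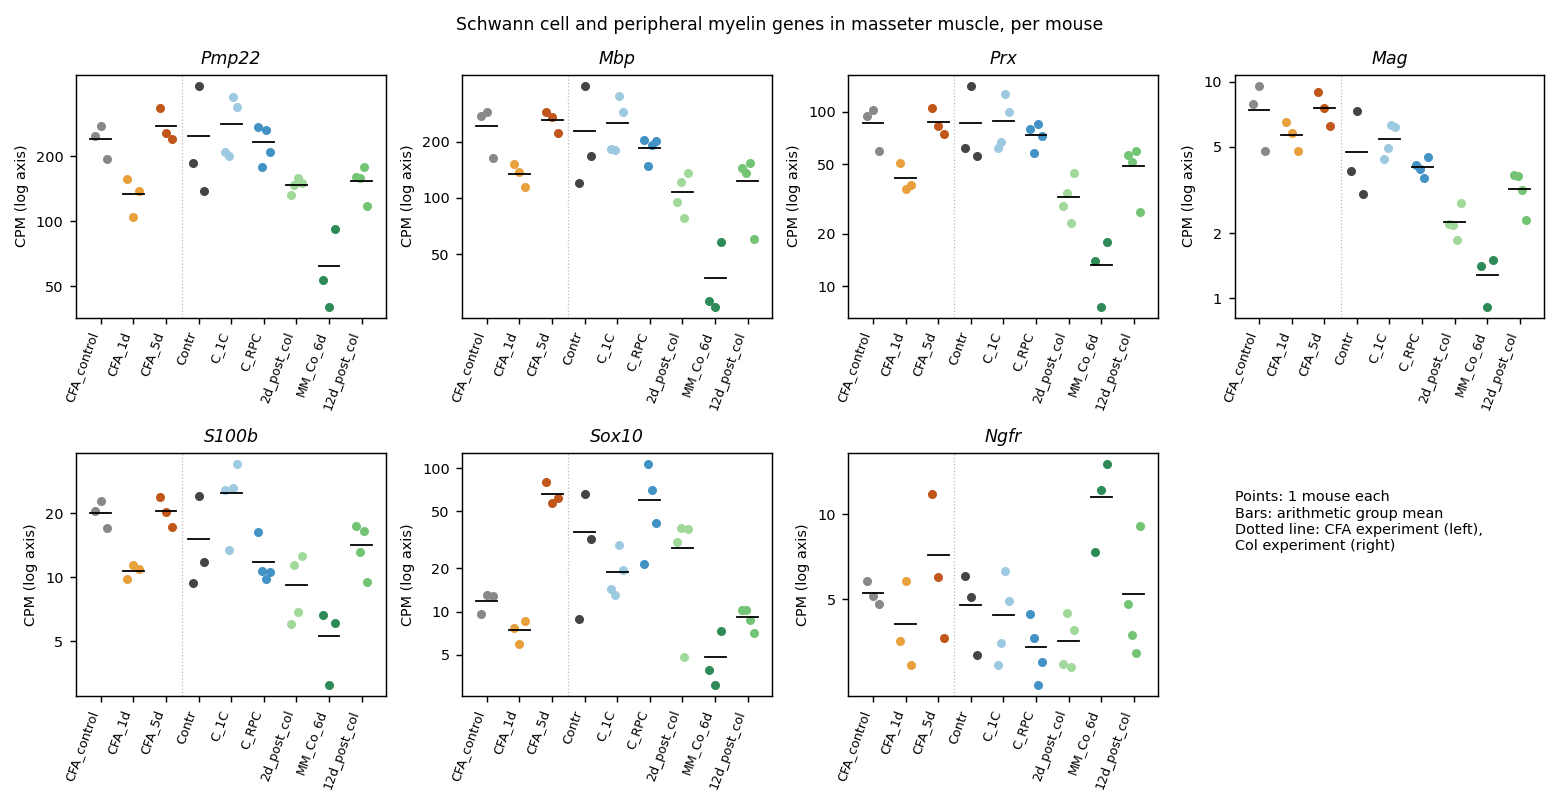
Level of each member in every mouse, in CPM on a log axis, by group (left of the dotted line the CFA experiment, right of it the Col experiment). Points are mice and bars are arithmetic group means. The 3 mice at 6d post-10U Col lie below all 28 other mice for Pmp22, Mbp, Prx and Mag. The share of all genes for which this holds was not counted.

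The first question was how these transcripts differed after the 10U dose of Col. At 6d post-10U Col, Pmp22, Mbp, Prx, Mag, S100b and Sox10 were down-regulated 2.85- to 7.49-fold against vehicle, and Ngfr was up-regulated 2.43-fold. All 7 members were called by edgeR's quasi-likelihood test with Benjamini-Hochberg adjustment. Over all genes tested in this comparison, 14% were called higher and 13.3% lower. In all 7 members the 3 mice at 6d did not overlap the 3 vehicle mice. The share of all genes without overlap was not counted, here or for the later statements on overlap.

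Among the myelin proteins, Pmp22, the tetraspan protein of compact myelin, measured 53.6, 40.3 and 92.5 CPM at 6d post-10U Col against 185, 424 and 138 CPM in vehicle. Its log2 fold change was -2.0 (SE 0.48, adjusted p = 0.0236, edgeR), a 3.99-fold lower level. Mbp measured 27.8, 26.1 and 57.7 CPM against 120, 401 and 167 CPM. The highest Mbp value at 6d was thus below the lowest vehicle value, and the log2 fold change was -2.62 (SE 0.52, adjusted p = 0.0141, edgeR), or 6.16-fold. Prx, without which peripheral myelin forms but is not maintained, measured 14, 7.65 and 17.9 CPM against 62.2, 141 and 55.5 CPM. Its 6.54-fold lower level (log2 -2.71, SE 0.45, adjusted p = 0.00853, edgeR) was the call with the smallest adjusted p among the members. Mag measured 1.41, 0.914 and 1.50 CPM against 3.87, 7.37 and 3.03 CPM, a log2 fold change of -1.89 (SE 0.43, adjusted p = 0.0203, edgeR), or 3.70-fold lower.

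In each of these myelin genes the second vehicle mouse stood well above the other 2, and mouse 2 at 6d was the lowest of its group. The spread between vehicle mice was therefore wide, with group means of 249 ± 153 CPM for Pmp22, 229 ± 150 for Mbp, 86.3 ± 47.7 for Prx and 4.76 ± 2.30 for Mag (SD, n = 3). At 6d the means were 62.1 ± 27.1, 37.2 ± 17.8, 13.2 ± 5.15 and 1.28 ± 0.317 CPM in the same order (SD, n = 3). All 4 genes were also called without that high vehicle mouse, but it set the size of the folds: without it Pmp22 was 2.62-fold lower (log2 -1.39), Mbp 3.91-fold (-1.97), Prx 4.52-fold (-2.18) and Mag 2.73-fold (-1.45).

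The Schwann cell identity markers were lower too, with less margin. S100b measured 6.68, 3.12 and 6.10 CPM at 6d post-10U Col against 9.38, 24.2 and 11.8 CPM in vehicle (log2 -1.51, SE 0.44, adjusted p = 0.0396, edgeR; 2.85-fold). Sox10 measured 3.94, 3.08 and 7.35 CPM against 8.88, 66.2 and 32.1 CPM (log2 -2.90, SE 0.70, adjusted p = 0.0235, edgeR; 7.49-fold). The 2 vehicle mice with high Sox10 are gland libraries, with 53676 and 19311 summed CPM of salivary genes against 68.7 in the first, so the Sox10 fold is set against vehicle mice that differ widely among themselves together with their gland transcripts. Without the second vehicle mouse Sox10 was 4.39-fold lower (log2 -2.13, adjusted p = 0.0400, edgeR) and S100b was not called (-1.02, adjusted p = 0.0821).

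Ngfr moved the other way, with 7.32, 12.2 and 15.1 CPM at 6d post-10U Col against 6.05, 5.09 and 3.17 CPM in vehicle. The log2 fold change was 1.28 (SE 0.34, adjusted p = 0.0321, edgeR). The lowest 6d mouse was close to the highest vehicle mouse, and 2 of the 3 mice at 6d exceeded every mouse of the other groups.

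Within 3 mice per group the calls leaned on single libraries. Without mouse 1, 2 or 3 at 6d, 2, 1 and 4 members were called. Of all genes, 4.59%, 3.39% and 8.09% were then called higher and 2.68%, 2.44% and 6.2% lower. Without vehicle mouse 1, 2 or 3, 6, 5 and 7 members were called. There 7.66%, 10.7% and 21.5% of all genes were called higher and 7.06%, 9.13% and 20.0% lower. Prx was called in all 6 refits and no other member was. With the gland libraries left out, the 3 mice at 6d were set against vehicle mouse 1 alone, which was assumed to vary like the 6d group, and Pmp22 (-1.56), Mbp (-1.67), Prx (-2.23) and Mag (-1.59) were called on the log2 scale while S100b (-0.82), Sox10 (-0.88) and Ngfr (0.94) were not. In that refit 17.3% of all genes were called higher and 14.7% lower.

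**Figure D2:**
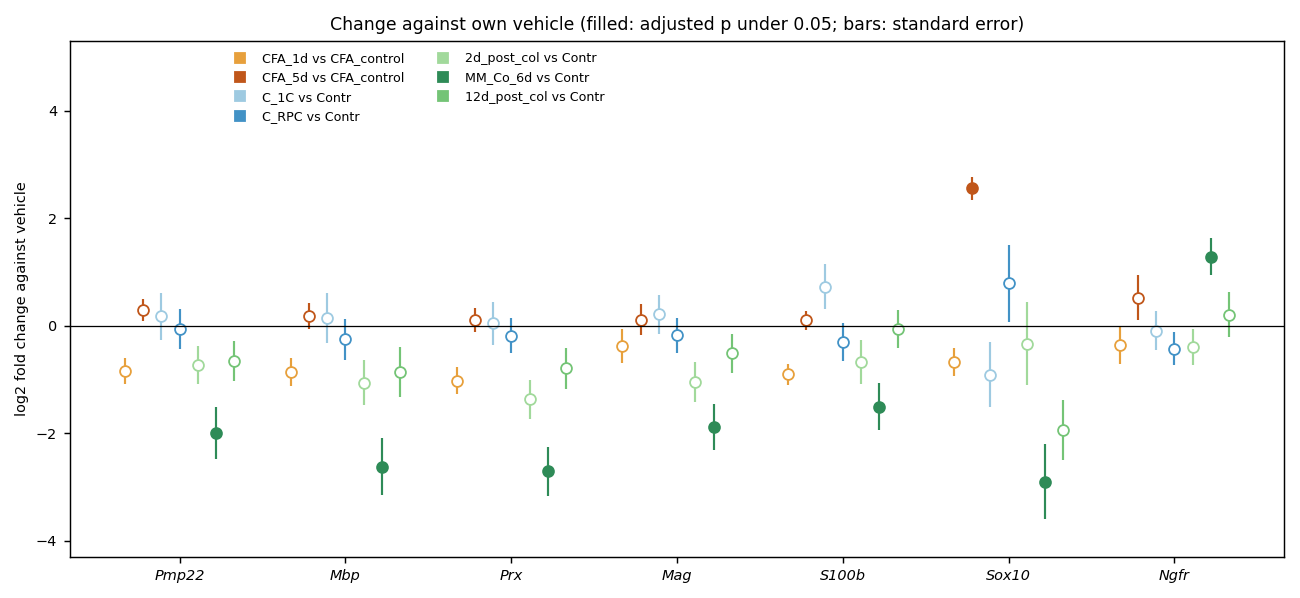
Log2 fold change of each member against the vehicle group of its own experiment, with bars of 1 standard error. Filled points have an adjusted p under 0.05: all 7 members at 6d post-10U Col (MM_Co_6d) and Sox10 at 5d post-CFA.

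The course over time after 10U Col was described by 2d, 6d and 12d. At 2d post-10U Col all 7 members had a mean below vehicle, with log2 fold changes from -1.37 to -0.33, and edgeR called 0 of 7 where 1.14% of all genes were called higher and 1.08% lower. At an unadjusted p under 0.05 there were 3 members and 4781 genes. DESeq2 called 1 member, Prx, where it called 11.7% of all genes higher and 11.4% lower. Prx measured 29.0, 34.2, 22.9 and 44.3 CPM at 2d against 62.2, 141 and 55.5 CPM in vehicle, so that the groups did not overlap (log2 -1.37, SE 0.37, adjusted p = 0.0655, edgeR). Mag showed the same separation, with 2.21, 2.18, 1.86 and 2.74 CPM against 3.87, 7.37 and 3.03 CPM (log2 -1.05, SE 0.38, adjusted p = 0.105, edgeR). Pmp22 (-0.73) and Mbp (-1.06) overlapped vehicle. With both vehicle groups pooled as the reference, 4 members were called at 2d, where 17.7% of all genes were called higher and 16.7% lower.

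From 2d to 6d post-10U Col, Pmp22 and Mbp fell and Ngfr rose. Pmp22 went from 132, 147, 158 and 151 CPM to 53.6, 40.3 and 92.5 CPM (log2 -1.26, SE 0.28, adjusted p = 0.0374, edgeR). Mbp went from 95.1, 122, 78.0 and 136 CPM to 27.8, 26.1 and 57.7 CPM (log2 -1.56, SE 0.35, adjusted p = 0.0370, edgeR). Ngfr went from 2.94, 4.47, 2.88 and 3.90 CPM to 7.32, 12.2 and 15.1 CPM, 3.20-fold higher (log2 1.68, SE 0.30, adjusted p = 0.0193, edgeR). These 3 members showed no overlap between 2d and 6d, nor did Prx (log2 -1.33, adjusted p = 0.0513, edgeR) and Mag (-0.84, adjusted p = 0.140), which were not called. How many of all genes were apart in this way was not counted. Of all genes tested, 4.68% were called higher and 4.05% lower at 6d than at 2d. Sox10 (-2.56) spread widely at 2d, where 3 gland libraries had 30.5, 38.3 and 37.7 CPM and the remaining mouse 4.79 CPM. Leaving out a mouse in turn gave 0 to 5 called members. These were 0, 1, 4 and 5 without a mouse at 2d, in replicate order, and 1, 0 and 2 without a mouse at 6d. Of all genes, 2.02%, 1.54%, 5.05% and 14% were called higher without a mouse at 2d, and 1.26%, 0.677%, 4.49% and 14.8% lower. Without a mouse at 6d, 1.26%, 0.713% and 2.27% were called higher and 0.237%, 0.168% and 0.802% lower. With the gland libraries left out, only 1 mouse remained at 2d and no member was called.

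From 6d to 12d post-10U Col, 5 members rose: Prx 3.73-fold, Mbp 3.36-fold, S100b 2.71-fold, Mag 2.55-fold and Pmp22 2.50-fold. No library of either group is a gland library, and all belong to the 11 libraries of 10U Col with their common range of reads over more than 1 gene. Over all genes tested, 13.4% were called higher and 13.0% lower at 12d. Pmp22 measured 161, 158, 178 and 118 CPM at 12d against 53.6, 40.3 and 92.5 CPM at 6d (log2 1.32, SE 0.30, adjusted p = 0.0217, edgeR). Mbp measured 145, 136, 154 and 60.2 CPM against 27.8, 26.1 and 57.7 CPM (log2 1.75, SE 0.41, adjusted p = 0.0240, edgeR). Both groups were apart for these genes, though the fourth mouse at 12d had almost the Mbp level of the highest mouse at 6d.

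The same was seen for the other 3 members that rose. Prx measured 56.7, 51.3, 59.3 and 26.8 CPM at 12d (log2 1.90, SE 0.37, adjusted p = 0.0160, edgeR). Mag measured 3.71, 3.68, 3.15 and 2.31 CPM (log2 1.35, SE 0.29, adjusted p = 0.0198, edgeR) and S100b 17.4, 13.2, 16.5 and 9.53 CPM (log2 1.44, SE 0.32, adjusted p = 0.0214, edgeR). None of the 12d values of these genes lay within the 6d range. Sox10 (10.2, 10.3, 8.75 and 7.12 CPM; log2 0.94, adjusted p = 0.0597, edgeR) and Ngfr (4.82, 3.74, 3.21 and 9.08 CPM; log2 -1.12, adjusted p = 0.0680, edgeR) overlapped the 6d mice and were not called by edgeR. DESeq2 called all 7 members from 6d to 12d, where it called 19.6% of all genes higher and 17.8% lower.

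Mouse 4 at 12d had the lowest Pmp22, Mbp, Prx, Mag, S100b and Sox10 of its group and the highest Ngfr. It also had the lowest muscle fibre sum of its group (39155 CPM against 108168 in the highest) and the highest fibroblast (13158 CPM) and macrophage (702 CPM) sums, values near those of the 6d mice. Without it all 7 members were called between 6d and 12d, where 25.0% of all genes were called higher and 29.1% lower. Without mouse 1, 2 or 3 at 12d 1 member was called in each refit, with 3.21% to 3.74% of all genes higher and 3.31% to 3.75% lower. Without mouse 1, 2 or 3 at 6d 1, 0 and 6 members were called. Of all genes, 3.94%, 0.722% and 6.93% were then called higher and 5.5%, 0.934% and 6.88% lower.

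At 12d post-10U Col no member was called against vehicle by edgeR, where 0.762% of all genes were called higher and 0.466% lower. The log2 fold changes ran from -1.95 for Sox10 (adjusted p = 0.156, edgeR) to 0.20 for Ngfr, with -0.66 (SE 0.37) for Pmp22, -0.86 (SE 0.46) for Mbp, -0.79 (SE 0.38) for Prx, -0.52 (SE 0.37) for Mag and -0.06 (SE 0.36) for S100b. At an unadjusted p under 0.05 there were 1 member, Sox10, and 2461 genes. DESeq2 called 1 member, also Sox10, where it called 3.66% of all genes higher and 2.7% lower. Every member overlapped between 12d and vehicle, and the standard errors leave room for levels well below or above vehicle. Without vehicle mouse 1, 1 member was called, where 0.407% of all genes were called higher and 0.836% lower.

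Other cell types differed in the same libraries. At 6d post-10U Col the muscle fibre genes (6 of 6 tested) summed to 26616 to 51419 CPM against 91127 to 133681 CPM in vehicle, and at 2d they summed to 26181 to 52878 CPM. Fibroblast genes summed to 6406 to 11053 CPM at 6d against 1070 to 6999 CPM in vehicle, and macrophage genes to 967 to 1844 CPM against 87.2 to 365 CPM. The muscle fibre sums of 2d and 6d overlapped. Over the 31 libraries the log2 CPM of the muscle fibre list correlated with Mag at r = 0.82 (0.69 within groups), Prx at 0.72 (0.65), Mbp at 0.69 (0.61), S100b at 0.66 (0.52) and Pmp22 at 0.56 (0.43). The macrophage list correlated with these 5 members at -0.76 (Prx) to -0.64 (Pmp22), and within groups at -0.59 (Mbp) to -0.35 (Pmp22). Both are descriptions over libraries that share depth and dissection. Adipocytes also make S100b, and the adipocyte list (6 genes) correlated with it at 0.56 and at 0.64 within groups. Adipocyte genes summed to 13.9 to 73.4 CPM at 6d post-10U Col against 42.8 to 135 CPM in vehicle, with 4 of 6 genes below every vehicle mouse and 1 called lower, and to 4.88 to 44.8 CPM at 1d post-CFA against 75.7 to 159 CPM. Melanocyte genes, a possible source of Sox10 and S100b, summed to 13.2 to 50.3 CPM over all 31 libraries, with 2 to 4 of the 6 genes at 3 counts or fewer in every library of a group. The part of fibroblast, macrophage, adipocyte and muscle fibre transcripts in the members' levels was not tested.

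**Figure D3:**
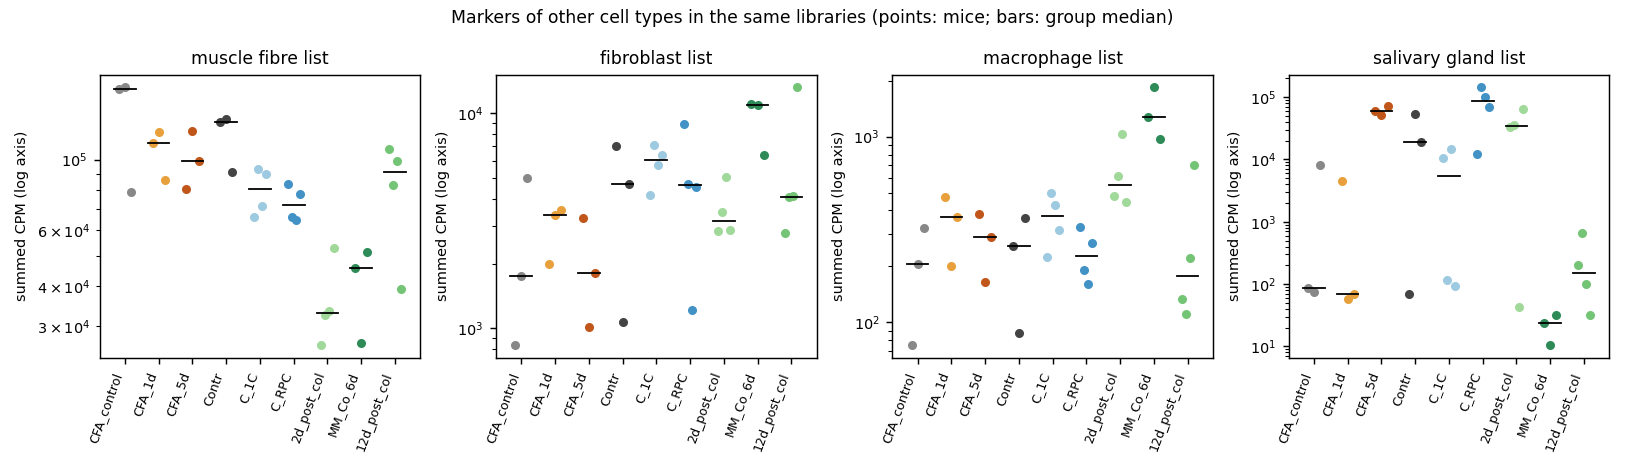
Summed CPM of marker genes of muscle fibres, fibroblasts, macrophages and salivary gland in every mouse, on log axes, with bars at group medians. At 6d post-10U Col the muscle fibre sums lie below and the macrophage sums above all vehicle mice, and the salivary gland sums are at most 31.8 CPM.

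In CFA-treated MM the question was whether inflammation moved the same genes. At 1d post-CFA all 7 members had a mean below vehicle, with log2 fold changes from -1.03 (Prx) to -0.36, but edgeR called 0 of 7 members (adjusted p 0.924 to 0.935) and 0.0% of all genes higher and 0.0% lower. At an unadjusted p under 0.05 there were 5 members and 588 genes. DESeq2 called 1 member, S100b (adjusted p = 0.0405, DESeq2), where it called 0.33% of all genes higher and 0.0717% lower. Pmp22 measured 156, 105 and 138 CPM against 247, 277 and 193 CPM in vehicle, without overlap. Prx measured 51.1, 36.3 and 38.1 CPM against 94.8, 102 and 59.9 CPM, and S100b 9.88, 11.4 and 10.9 CPM against 20.5, 23.0 and 17.0 CPM. Pmp22, Mbp, Prx, S100b and Sox10 did not overlap, while Mag and Ngfr did. How many of all genes did not overlap at 1d post-CFA was not counted. All 12 compact myelin genes tested were below 0 with a median of -0.63, where the median of all genes was -0.01.

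At 5d post-CFA the myelin genes were near their vehicle. Pmp22 measured 334, 256 and 240 CPM, Mbp 288, 272 and 224 CPM and Prx 105, 82.7 and 74.1 CPM, each overlapping vehicle, with log2 fold changes of 0.29 (SE 0.21), 0.18 (SE 0.24) and 0.11 (SE 0.22). Mag, S100b and Ngfr had log2 fold changes of 0.11, 0.10 and 0.52. Of the 7 members 1 was called, Sox10, where 1.06% of all genes were called higher and 0.0428% lower.

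Sox10 measured 80.1, 57.1 and 61.6 CPM at 5d post-CFA against 9.69, 13.1 and 12.8 CPM in vehicle, 5.87-fold higher (log2 2.55, SE 0.21, adjusted p = 0.0153, edgeR). The groups were far apart. All 3 mice at 5d post-CFA are gland libraries, with salivary sums of 52365 to 71856 CPM against 74.2 to 8179 CPM in vehicle, so this comparison could not be run without them. Over the 31 libraries the log2 CPM of Sox10 and of the salivary gland list correlated at r = 0.90, and at r = 0.75 within groups, where Prx gave 0.50 and 0.32 and Pmp22 0.51 and 0.12. These points share library depth and dissection, and the correlation is descriptive. The call was lost with pooled vehicles (adjusted p = 0.438), in the fit shared by all libraries (adjusted p = 0.0697), and without mouse 2 (0.0525) or 3 (0.0549) at 5d or vehicle mouse 2 (0.0924). Gm10863 and Polr2f lie beside Sox10 on the other strand; Polr2f stayed between 16.2 and 37.0 CPM in all libraries, and Gm10863 was at 1.67 to 3.26 CPM at 5d post-CFA and 0.0469 to 0.482 CPM in vehicle.

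**Figure D4:**
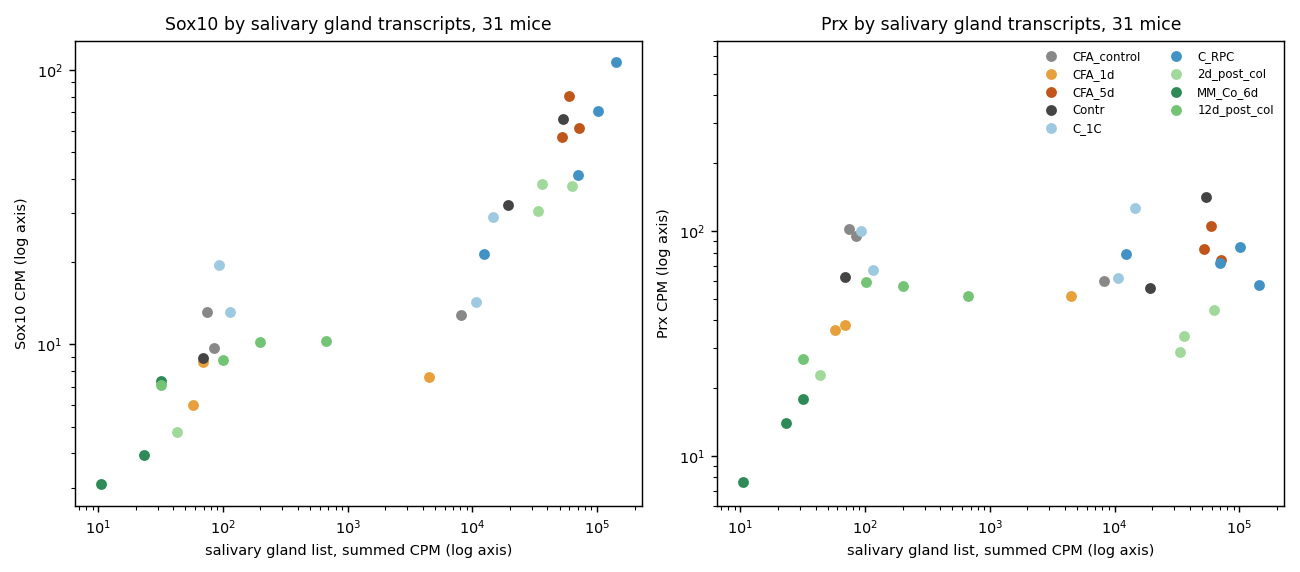
CPM of Sox10 (left) and Prx (right) against the summed CPM of 11 salivary gland genes in each of the 31 mice, on log axes, coloured by group. Sox10 is highest in the libraries with the most gland transcripts, while Prx reaches 102 CPM in a library with few and 141 CPM in one with many.

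After 0.2U Col, members of both groups overlapped vehicle and none was called. In 1C, log2 fold changes ran from -0.91 for Sox10 to 0.73 for S100b, and in RPC from -0.43 for Ngfr to 0.79 for Sox10, with SE of 0.31 to 0.72 over both groups. EdgeR called 0 of 7 members in 1C and 0 of 7 in RPC, and in each of these comparisons 0.0% of all genes were called higher and 0.0% lower. No member had an unadjusted p under 0.05 (1819 genes in 1C and 1923 in RPC did), and DESeq2 called 0 members in either. It called 2.48% of all genes higher and 1.1% lower in 1C, and 1.32% and 1.78% in RPC. Pmp22 measured 209, 200, 377 and 336 CPM in 1C and 274, 179, 265 and 210 CPM in RPC, and Prx 61.6, 66.8, 126 and 99.6 CPM and 79.2, 57.7, 84.9 and 72.2 CPM. Both overlap the vehicle mice. Sox10 in RPC, at 21.4, 107, 70.8 and 41.4 CPM, had the highest single value of the series, in the library with the highest salivary sum.

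Whether the change after 10U Col differed from that after CFA was tested as an interaction. Between 6d post-10U Col and 5d post-CFA, each against its own vehicle, Pmp22 differed by -2.31 on the log2 scale (adjusted p = 0.0297, edgeR), Mbp by -2.82 (0.0199), Prx by -2.84 (0.0121), Mag by -2.02 (0.0344) and Sox10 by -5.47 (0.00477). S100b (-1.63, adjusted p = 0.0635, edgeR) and Ngfr (0.74, 0.419) did not pass. DESeq2 called 6 members in this contrast, where it called 8.39% of all genes higher and 10.2% lower. By edgeR 4.34% of all genes were called higher and 6.96% lower in this contrast. Leaving out 1 mouse gave 2 to 6 called members: 2 without mouse 1 or 2 at 6d, 3 without any mouse at 5d, without CFA vehicle mouse 1 or without Col vehicle mouse 2. In these refits 1.46% to 7.36% of all genes were called higher and 2.38% to 10.6% lower. Without Col vehicle mouse 2 the differences were -1.58 for Pmp22, -2.05 for Mbp, -2.19 for Prx, -1.46 for Mag and -4.59 for Sox10, and Mbp, Prx and Sox10 were called. Between 2d post-10U Col and 1d post-CFA no member was called, with differences from -0.69 to 0.32, no member at an unadjusted p under 0.05 (1011 genes) and 0 by DESeq2; 0.0541% of all genes were called higher and 0.0406% lower. The days differ between agents, so agent and time cannot be told apart.

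The 2 vehicle groups were compared directly. No member was called between them (adjusted p of 1.0 for each, edgeR), 1 had an unadjusted p under 0.05 (326 genes did), DESeq2 called 0, and 0.0426% of all genes were called higher and 0.0% lower in the Col vehicle. Sox10 differed by 1.64 on the log2 scale (SE 0.64), and the other 6 by -0.60 to 0.10. With the gland libraries left out, leaving 1 Col vehicle against 2 CFA vehicles, Mbp had a log2 fold change of -1.20 (adjusted p = 0.0329, edgeR), where 1.37% of all genes were called higher and 0.272% lower. That value rests on 1 Col vehicle mouse, which had the lowest Mbp of the 6 vehicle mice (120 CPM) and was assumed to vary like the CFA vehicles.

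Other genes of peripheral nerve came from 6 lists of 73 genes, none of them a member. At 6d post-10U Col, 65 were tested against vehicle, 11 rose and 18 fell. Over all genes tested there, 14% were called higher and 13.3% lower. The shares of the lists were not compared with these by a test. Of 12 compact myelin genes 8 fell and none rose, with a median log2 fold change of -1.62 where all genes had 0.01. Of 14 genes of Schwann cell transcription and signalling 6 fell and 1 rose (median -0.55), of 8 node and paranode genes 2 fell and 1 rose (-0.47), and of 8 myelin lipid genes 1 fell and 1 rose (-0.99). Of 15 genes of non-myelinating and repair Schwann cells 6 rose and none fell (0.70), and of 8 axon genes 2 rose and 1 fell (1.22).

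Among the genes that fell, Cldn19, a tight junction protein of myelin incisures, was 6.32-fold lower (log2 -2.66, SE 0.54, adjusted p = 0.0144, edgeR), with a mean of 2.58 CPM against 16.4 CPM. Pllp, a myelin membrane protein, had a log2 fold change of -2.49, Fa2h, which makes the hydroxylated lipids of myelin, of -2.77 and Snap25, a presynaptic protein of axons, of -2.47. The largest fall was that of Gjb1, the gap junction protein of myelin (-5.21, SE 1.24, adjusted p = 0.0229, edgeR), with 7 to 17 counts at 6d and 21 to 643 in vehicle. Gjb1 is also made by gland cells, and it was at 651 to 939 counts at 5d post-CFA, where all mice are gland libraries.

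Among the genes that rose, Ncam1, an adhesion molecule of non-myelinating Schwann cells and also of denervated or regenerating muscle fibres, was 8.41-fold higher (log2 3.07, SE 0.30, adjusted p = 0.00200, edgeR), with 141 CPM against 16.7 CPM. Uchl1, an enzyme abundant in axons, rose 9.44-fold (adjusted p = 0.00146, edgeR) and Tubb3, a neuronal tubulin, 4.84-fold (adjusted p = 0.00623, edgeR). Nrg1, the growth factor that signals to Schwann cells, had 57 to 106 counts at 6d against 2 to 4 counts in vehicle (adjusted p = 0.00226, edgeR). Cntn2, an adhesion protein beside the node, had 48 to 110 counts at 6d against 1 to 2 counts in each vehicle library, which makes it at least 18.9-fold higher when each vehicle library is set at 3 counts. Cntn2 was however at 22 to 47 counts in the vehicle of the CFA experiment. Egr2 (0.75, adjusted p = 0.179, edgeR) and Erbb3 (0.53, 0.111), the regulators beside Sox10, were not called.

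The result for axon genes depended on the vehicle. The axon list summed to 12.2 to 17.2 CPM in the Col vehicle and 38.3 to 91.2 CPM in the CFA vehicle. All 8 genes tested were lower in every Col vehicle mouse than in any CFA vehicle mouse. EdgeR called 0 of them, with 0.0426% of all genes called higher and 0.0% lower. At an unadjusted p under 0.05 there were 8 axon genes, and 326 of 14070 genes. DESeq2 called 3 axon genes, where it called 0.377% of all genes higher and 0.0853% lower. With both vehicle groups pooled, the median of the axon genes at 6d post-10U Col turned from 1.22 to -1.32. That of the compact myelin genes was -1.66, with 9 genes called lower, and that of the non-myelinating and repair genes 0.95, with 7 called higher. Of all genes, 20.3% were called higher and 19.7% lower with pooled vehicles. With the gland libraries left out, a single Col vehicle mouse remained. The medians were then -1.09 for compact myelin, -0.11 for Schwann transcription and signalling, 0.97 for non-myelinating and repair and 2.27 for axon genes.

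**Figure D5:**
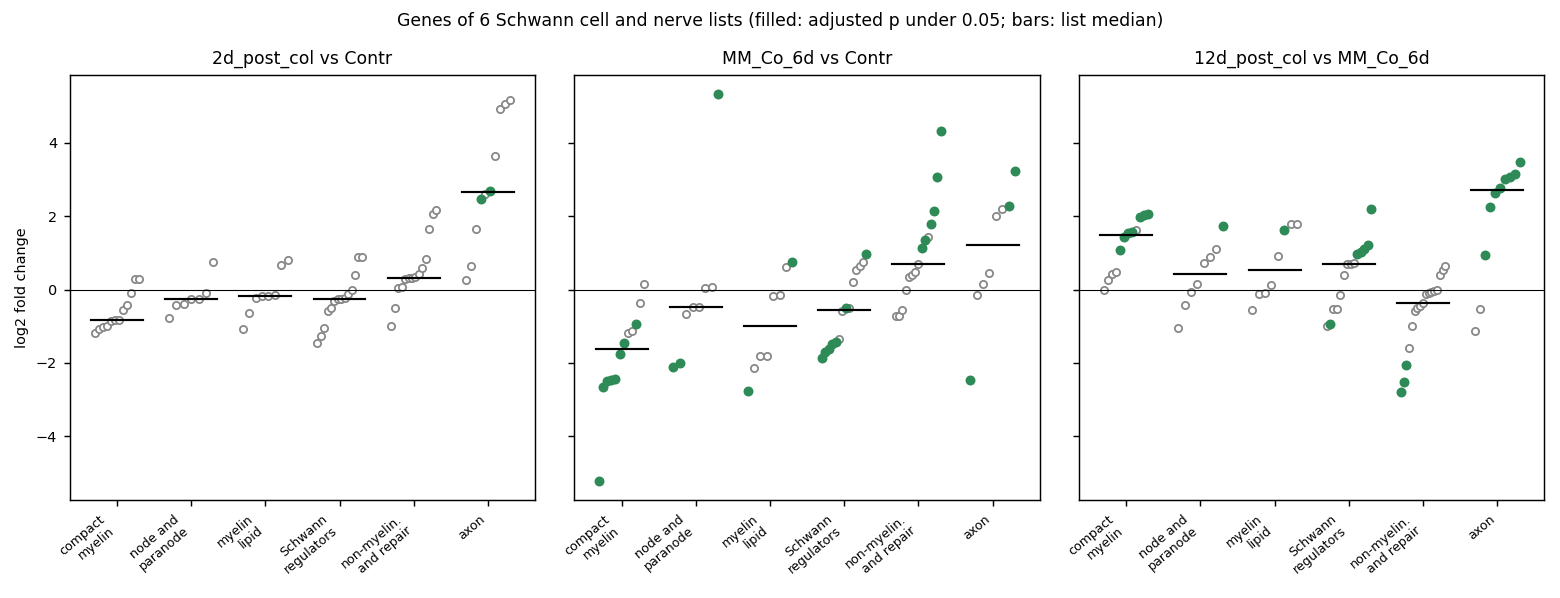
Log2 fold change of each gene of 6 nerve lists, none of them a member, in 3 comparisons of the Col experiment (filled: adjusted p under 0.05, bars: list medians). Compact myelin genes lie mostly below 0 at 6d post-10U Col (MM_Co_6d vs Contr, median -1.62) and above 0 from 6d to 12d (median 1.49).

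At 2d post-10U Col edgeR called 2 of 65 nerve genes against vehicle, Uchl1 (log2 2.68, adjusted p = 0.0407, edgeR) and Tubb3 (2.48, adjusted p = 0.0483, edgeR), and no compact myelin gene (median -0.83). Of all genes, 1.14% were called higher and 1.08% lower. DESeq2 called 16 nerve genes at 2d, 3 of them of compact myelin, where it called 11.7% of all genes higher and 11.4% lower. At 12d edgeR called Cntn2 alone against vehicle, at least 8.94-fold higher against the same 3 counts. Cntn2 had 10 to 44 counts at 12d, within or below the 22 to 47 counts in the vehicle of the CFA experiment. Of all genes, 0.762% were called higher and 0.466% lower. DESeq2 called 9 nerve genes at 12d, 7 of them axon genes and 1 of compact myelin, where it called 3.66% of all genes higher and 2.7% lower. From 6d to 12d 22 of 69 nerve genes rose and 4 fell, where 13.4% of all genes were called higher and 13.0% lower. Among them 7 of 12 compact myelin genes, 5 of 14 Schwann regulators and 8 of 10 axon genes rose, while 3 of 17 non-myelinating and repair genes fell. The axon genes Nefl, Nefm and Nefh, the neurofilament subunits, rose 8.43-, 8.13- and 8.89-fold. From 2d to 6d 2 of 68 nerve genes rose and 9 fell, where 4.68% of all genes were called higher and 4.05% lower. Of the axon genes 5 of 9 tested fell (median -2.74), and of the compact myelin genes 2 of 12 (median -0.72). At 2d the 10 axon genes tested had a median of 2.65 against vehicle. The axon list summed to 49.7 to 136 CPM at 2d, 38.7 to 44.3 CPM at 6d and 38.4 to 110 CPM at 12d. At 5d post-CFA the only gene of the nerve lists called by edgeR was Elovl7, a fatty acid elongase of the myelin lipid list (1.72, SE 0.27, adjusted p = 0.0409, edgeR). There 1.06% of all genes were called higher and 0.0428% lower. All 3 mice of that group are gland libraries, and the part of gland transcripts in this call was not tested. At 1d post-CFA, in 1C and in RPC edgeR called no nerve gene. DESeq2 called 6 nerve genes at 5d post-CFA (5.06% of all genes higher, 1.3% lower) and 3 at 1d post-CFA (0.33% and 0.0717%). It called 4 in 1C (2.48% and 1.1%) and 0 in RPC (1.32% and 1.78%). At an unadjusted p under 0.05 there were 17 of 65 nerve genes at 2d, 16 of 67 at 12d and 14 of 68 at 5d post-CFA. There were 8 of 68 at 1d post-CFA, 10 of 61 in 1C and 5 of 63 in RPC. Over all genes there were 4781 of 14373 at 2d, 2461 of 14176 at 12d and 1964 of 14026 at 5d post-CFA. There were 588 of 13944 at 1d post-CFA, 1819 of 14493 in 1C and 1923 of 14269 in RPC. The nerve share was below that of all genes at 2d and in RPC, and above it in the other comparisons. The shares were not compared by a test.

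In order of mean level, 6d post-10U Col was the lowest of the 9 groups for Pmp22, Mbp, Prx, Mag, S100b and Sox10 and the highest for Ngfr. For Pmp22, Mbp, Prx and Mag it was apart from the next group, with the 6d mice at most at 92.5, 57.7, 17.9 and 1.50 CPM and the 28 other mice at least at 105, 60.2, 22.9 and 1.86 CPM. Above that step neighbouring groups overlapped, apart from Pmp22 in RPC (232 ± 45.0 CPM, SD, n = 4) over 12d post-10U Col (154 ± 25.3 CPM, SD, n = 4). The highest means were those of 1C for Pmp22 (280 ± 89.4 CPM), Prx (88.4 ± 30.0) and S100b (24.9 ± 8.59) and of 5d post-CFA for Mbp (261 ± 33.2), Mag (7.59 ± 1.34) and Sox10 (66.3 ± 12.2). Neighbours overlapped in every position for S100b, Sox10 and Ngfr. How many of all genes were lowest in the 6d mice was not counted.

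Across the 31 libraries the log2 CPM of Pmp22, Mbp, Prx, Mag and S100b varied together, with Pearson's r of 0.81 to 0.97 over the 10 pairs. Within groups, after subtracting group means, r was 0.67 to 0.92. Sox10 correlated with these 5 at 0.43 to 0.64, and Ngfr with the other 6 at -0.32 to -0.15. Within groups Ngfr lost its negative sign, with r of 0.23 with Pmp22, 0.13 with Mbp and 0.12 with Prx. These values describe libraries that share depth, dissection and treatment, and the mixture of tissue in each.

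The genes most like each member, among 14518 compared over 31 libraries, were mostly other nerve genes for the myelin members. Among the 3 closest to Pmp22 were Cldn19 (r 0.955) and Mal (0.953). Mbp was closest to Kif1a (0.971), A330049M08Rik (0.959) and Cldn19 (0.957), and Prx to Cldn19 (0.982), Aatk (0.966) and A330049M08Rik (0.962). Among the 3 closest to Mag were Gpr37l1 (0.932) and Cnp (0.901). S100b was closest to C030030A07Rik (0.893), Ddn (0.882) and Bcas1 (0.878). Sox10 was closest to Tesc (0.972), Rap1gap (0.965) and Gpr126 (0.958), and none of its 3 is among those of another member. Ngfr had the weakest likeness, with 1700112E06Rik (0.811), Adc (0.800) and Trim13 (0.771).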

How the data were processed

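Bulk RNA-seq was performed on dissected MM, with 1 library per mouse. The authors made stranded poly(A) libraries, aligned single-end reads with TopHat2 to build mm9 (the study's text writes "mm9/UCSC hg19") and, per the labels, counted reads per gene with HTSeq; versions and the strand setting of the counting are not given in the sources used here. The deposited values are raw counts per gene symbol, not normalized or filtered; between 41.66% and 58.93% of a file's total was tallied to no gene, and these lines were left out of library sizes and tests. Days follow the labels.

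Counts were scaled by TMM and tested with edgeR 4.0.16 (quasi-likelihood test, two-sided, R 4.3.3) within the libraries of each comparison, and genes were kept where 3 or more of them had a count of 10 or more. P-values were adjusted by Benjamini-Hochberg over all genes tested, and a gene was called at an adjusted p under 0.05. The standard error of a log2 fold change was derived from its F statistic. CPM used TMM factors over all 31 libraries, and RPKM divide them by the exon length of the GENCODE vM1 annotation. DESeq2 1.42.0, its size factors, no filter, pooled vehicles, a shared fit, a replicate block and leaving out each mouse were alternatives; leaving out libraries with over 1000 summed CPM of salivary gland genes was added after the data were seen. Scripts were tested on simulated counts.

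The members, the gene lists and the tests were chosen with earlier results of these data known. Besides the members, the text names in each comparison with vehicle up to 5 called genes per direction with the largest change over 6 nerve gene lists. It also names genes among the 3 most correlated with each member; some genes these rules name are not reported here, and other genes were named after their values were seen. Replicate numbers are shared between groups, but the labels tie them to no common animal, litter or day. Deviations of same-numbered libraries correlated above 0.1 in all 3 pairs for 1d post-CFA against its vehicle (lowest r 0.115) and for the vehicle groups against each other (lowest r 0.114), and not in the other 8 comparisons. In those 2 comparisons the block changed no call of a member.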

Additional observations from a re-analysis of the deposited data

Results flagged for a closer look

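S100b in replicate 1 of RPC, at 16.3 CPM, lay further from the other 3 mice of its group (9.81 to 10.7 CPM) than Dixon's test at the 95% level allows. It was the 1 such value among 28 tests of a member in a group of 4 mice, where chance gives about 1 in 20.

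For 5 members the change from vehicle at 6d post-10U Col differed from that at 5d post-CFA by edgeR's interaction test. The differences were -2.31 for Pmp22, -2.82 for Mbp, -2.84 for Prx, -2.02 for Mag and -5.47 for Sox10 on the log2 scale. For Sox10 the 3 mice at 5d post-CFA all carry salivary gland transcripts and the 3 mice at 6d do not, and the part of these transcripts in the difference was not tested beyond the values given above. Agent and day cannot be told apart.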

How the results depend on the processing

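Limits. With 3 or 4 mice per group, members with wide vehicle spread pass or miss the threshold on single mice. The lowest count behind a member value was 27 (Mag at 6d), and counting error there was not separated from the spread between mice. The filter on low counts and DESeq2 size factors changed no count of called members.

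By DESeq2, 1 member each was called at 1d post-CFA (0.33% of all genes higher, 0.0717% lower), 2d (11.7% and 11.4%) and 12d post-10U Col (3.66% and 2.7%). It called 5 from 2d to 6d (8.82% and 9.83%) and 7 from 6d to 12d (19.6% and 17.8%). In the contrast of 6d post-10U Col with 5d post-CFA it called 6 (8.39% and 10.2%). With pooled vehicles 0 members were called at 5d post-CFA (0.0% of all genes higher, 0.0% lower) and 4 at 2d post-10U Col (17.7% and 16.7%). The shared fit gave 0 at 5d post-CFA (0.213% and 0.0322%) and 3 at 2d (15.4% and 16.4%). It gave 1 at 12d (3.06% and 1.95%) and 5 from 2d to 6d (6.22% and 5.44%). With the gland libraries left out, chosen after seeing the data, 4 members were called at 6d post-10U Col, 0 from 2d to 6d and 1 between vehicles, where 17.3%, 3.01% and 1.37% of all genes were called higher and 14.7%, 3.46% and 0.272% lower. With pooled vehicles and gland libraries left out 1 was called at 2d (18.4% of all genes higher, 18.3% lower).

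The replicate block left 2 members (Mbp and Prx) called at 6d post-10U Col, with 5.88% of all genes higher and 4.43% lower. At 2d it gave 3 members, with 16.4% of all genes higher and 15.6% lower. The numbers do not pair these mice, since the lowest correlation of same-numbered libraries was -0.189 at 6d and -0.384 at 2d, and no comparison had every mouse correlate best with its own number. The block changed the sign of Pmp22 in RPC (0.15), of S100b (0.20) and Ngfr (-0.23) at 12d, and of Pmp22 (-0.07) and Prx (-0.05) between vehicles, none of them called. It changed no other count of called members by over 1.5 times.

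Over all genes tested, DESeq2 called 56 at 1d post-CFA, 892 at 5d post-CFA, 519 in 1C, 443 in RPC, 3322 at 2d and 902 at 12d post-10U Col. DESeq2 size factors in edgeR gave 60 at 5d post-CFA. Pooled vehicles gave 0 at 5d post-CFA, 287 in 1C, 17 in RPC, 5043 at 2d, 5875 at 6d and 450 at 12d. The shared fit gave 38 at 5d post-CFA, 137 in 1C, 4943 at 2d and 778 at 12d. The block gave 1 at 1d post-CFA, 1 in 1C, 11 in RPC, 4525 at 2d, 1473 at 6d and 57 at 12d.

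Signs of members that were not called also turned. With pooled vehicles, Mag in 1C was -0.11 and Sox10 at 2d 0.26 on the log2 scale. With gland libraries left out Sox10 was 0.94 in 1C, 0.17 at 12d, 0.02 from 2d to 6d and -0.31 between vehicles, Mbp was 0.17, S100b 0.72 and Ngfr -0.06 at 12d, and Pmp22 was -0.45, Prx -0.61 and Ngfr 0.20 between vehicles. With both changes, Mag (-0.29) and Sox10 (0.70) in 1C and Ngfr at 12d (-0.01) turned.

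Leaving out 1 mouse gave 0 to 1 called members at 5d post-CFA, 0 to 1 at 2d, 1 to 7 at 6d, 0 to 1 at 12d, 0 to 5 from 2d to 6d, 0 to 7 from 6d to 12d and 2 to 6 in the contrast of 6d post-10U Col with 5d post-CFA. Over all genes it gave 0 to 19 calls at 1d post-CFA, 0 to 2162 at 5d post-CFA, 0 to 202 in 1C, 0 to 1 in RPC, 12 to 5143 at 2d, 809 to 5835 at 6d and 41 to 600 at 12d. Log2 fold changes of uncalled members that turned ranged, at 5d post-CFA, from -0.01 to 0.30 (Mbp), -0.06 to 0.23 (Prx), -0.09 to 0.31 (Mag), -0.04 to 0.20 (S100b) and -0.06 to 0.84 (Ngfr). In 1C they ranged from -0.11 to 0.84 (Pmp22), -0.18 to 0.85 (Mbp), -0.20 to 0.63 (Prx), -0.03 to 0.70 (Mag) and -0.31 to 0.08 (Ngfr), and in RPC from -0.33 to 0.58 (Pmp22), -0.58 to 0.42 (Mbp), -0.41 to 0.37 (Prx), -0.40 to 0.28 (Mag) and -0.58 to 0.21 (S100b). They ranged from -0.80 to 0.42 for Sox10 at 2d, and from -0.34 to 0.45 (S100b) and -0.25 to 0.39 (Ngfr) at 12d. Between vehicles the ranges were -0.54 to 0.39 (Pmp22), -0.72 to 0.27 (Mbp), -0.51 to 0.29 (Prx) and -0.30 to 0.11 (Ngfr). In the contrast of 2d post-10U Col with 1d post-CFA they were -0.20 to 0.73 (Pmp22), -0.53 to 0.46 (Mbp), -0.61 to 0.20 (Prx), -0.05 to 0.73 (S100b), -0.14 to 1.12 (Sox10) and -0.29 to 0.27 (Ngfr). The cause of these changes was not tested.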
